A study of Saposhnikovia divaricata with 9 samples.

Results

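Among 63753 transcript clusters measured in leaves of Saposhnikovia divaricata, 99 were higher in every library coded M than in any coded C. In the libraries coded L they were on average at a level similar to M. They were chosen by their measured FPKM values (sequenced fragments relative to the length of a cluster and to all mapped fragments of a library). The lowest M value had to reach 10 FPKM and 4 times the sum of the highest C value and 1 FPKM. The mean of L had to lie between 0.5 and 2 times the mean of M, and the mean of C below 1000 FPKM. The choice used C, M and L together, so the rise from C to M and the level in L are properties of the choice. Fold changes, standard errors and calls of the members from a fit to all clusters are therefore given as a description beside the share of all clusters called, and are not evidence for either.

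The plant is a medicinal herb of the carrot family. The 9 libraries came from leaves, 3 in each group, with replicate numbers 1 to 3. The study's design text describes plants 48 days old, a control, and cold at 4 °C for 6 h or for 48 h. The labels tie none of the codes C, M and L to a condition, so the groups are compared by code, and neither "before" nor "after" is meant by an order of the codes. The labels give no genotype, and do not say whether a library holds 1 plant, several pooled plants, or a separate plant from the other replicates.

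In flowering plants, cold is known to raise transcripts in waves. In Arabidopsis, the CBF transcription factors respond early and switch on cold-regulated genes, some of which stay high while the cold lasts and encode protective proteins such as dehydrins and enzymes of sugar metabolism. The features here are assembled transcript clusters with an identifier and no gene name, so none of the 99 can be assigned to this or any other pathway, no sequence is printed, and the leaf label could not be checked against marker genes.

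The 99 clusters took up a small part of the C libraries and a much larger part of the M and L libraries. They held 0.107%, 0.106% and 0.122% of all FPKM in C replicates 1 to 3. In M they held 1.28%, 1.27% and 1.27%, and in L 1.18%, 1.47% and 1.26%. The mean was 0.111% ± 0.00892 in C, 1.27% ± 0.0054 in M and 1.30% ± 0.147 in L (SD, n = 3). The M libraries lay close together, whereas L replicate 2 stood above both other L libraries. The 10 members with the highest mean in M made up 41.6% of the members' FPKM in M, 50.9% in C and 38.4% in L.

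**Figure D1:**
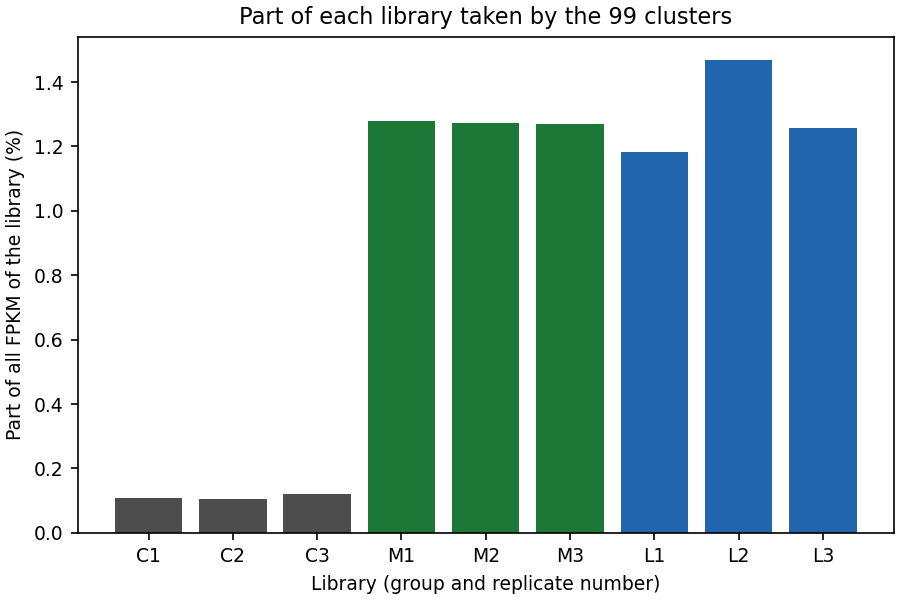
Part of all FPKM of each library taken by the 99 clusters, in percent, 1 bar per library (grey C, green M, blue L). The C bars lie between 0.106% and 0.122%, the M bars between 1.27% and 1.28%, and the L bars between 1.18% and 1.47%.

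The members can also be described by ranks within a library, which no scaling factor alters. The ranks come from the values that the rule used, so they too describe the choice. The median rank of the members was between 18758 and 22637 in the C libraries, in which 45032 to 47131 clusters were above 0. It was between 2256 and 2645 in M and between 2103 and 3042 in L. In M, 27 or 28 members stood among the 1000 most abundant clusters of a library, in L 28 to 35, and in C none or 1. Of the members, 23 were at 10 FPKM or more in each C library, all 99 in each M library by the rule, and 92, 89 and 94 in L replicates 1 to 3. No share of all clusters was computed for these counts in C and L.

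**Figure D2:**
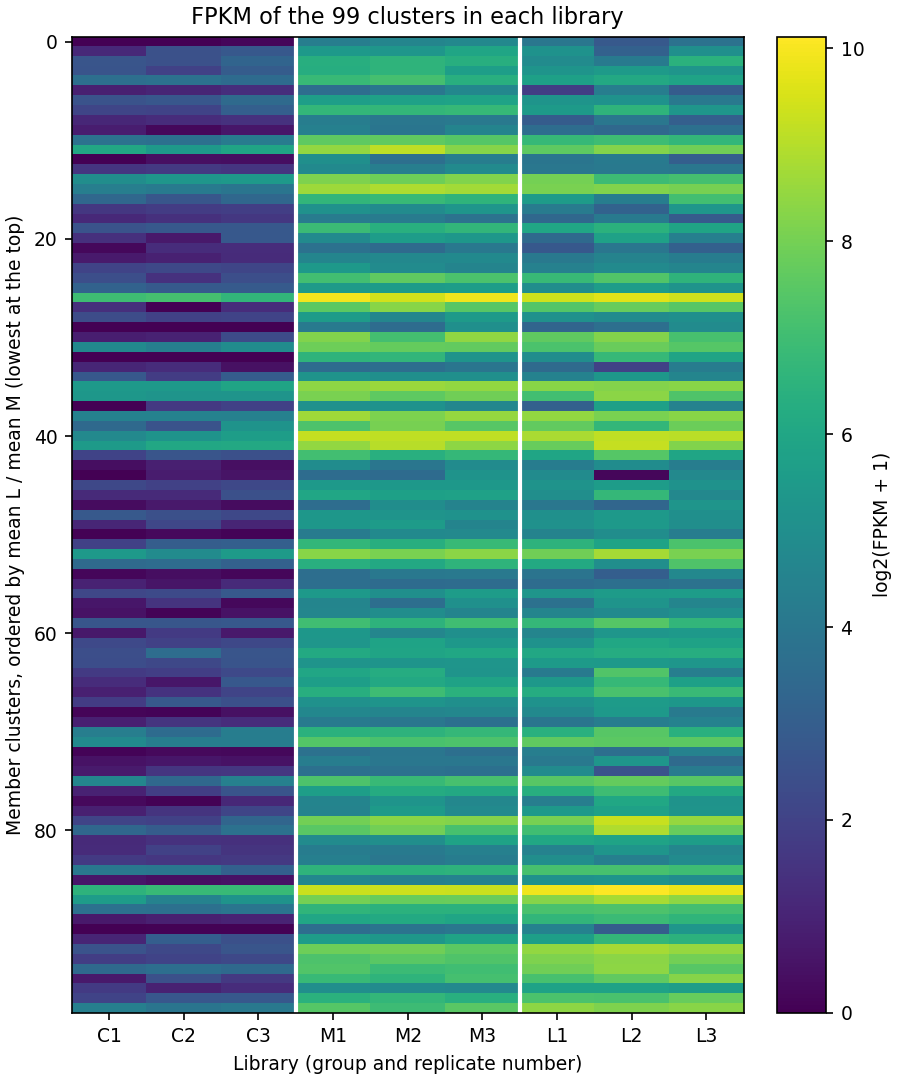
Level of each of the 99 clusters (rows) in each library (columns, group and replicate number) as log2(FPKM + 1), rows ordered by the ratio of the mean of L to the mean of M, lowest at the top. C columns are darker than M columns in every row, and M columns are of similar shade in most rows (10 rows span over 2-fold). In some rows the 3 L columns differ from each other, including 1 row at 0.13 FPKM in L replicate 2.

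The members differed widely in level. Mean FPKM ran from 0 to 121.3 in C with a median of 3.32, from 11.1 to 877.4 in M with a median of 53.6, and from 9.20 to 995.6 in L with a median of 53.6. The ratio of the M mean plus 1 to the C mean plus 1 had a median of 11.9 and ran from 5.38 to 114.8. For L against C the same ratio had a median of 10.5 and ran from 3.77 to 94.1. The addition of 1 understates the rise of clusters that are low in C.

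By level in C the members formed a low, a middle and a higher class. In 22 members the C mean was below 1 FPKM, and their median M mean was 21.7 FPKM. In 54 members it lay from 1 to below 10, with a median M mean of 47.2. In 23 members it was 10 or more, with a median M mean of 230.4. The median ratio of M to C (means plus 1) was 16.3, 11.0 and 7.26 in these classes, and the median ratio of L to M was 1.04, 1.01 and 0.907. The class highest in C thus had the lowest median ratio and the highest median level in M. This order is in part built in, since the M value required by the rule grows with C and C is the divisor of the ratio. An exact 0 can be a failed estimate in such a table. In all 3 C libraries, 2 members were listed at 0, and 8 were listed at 0 in at least 1 C library.

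**Figure D3:**
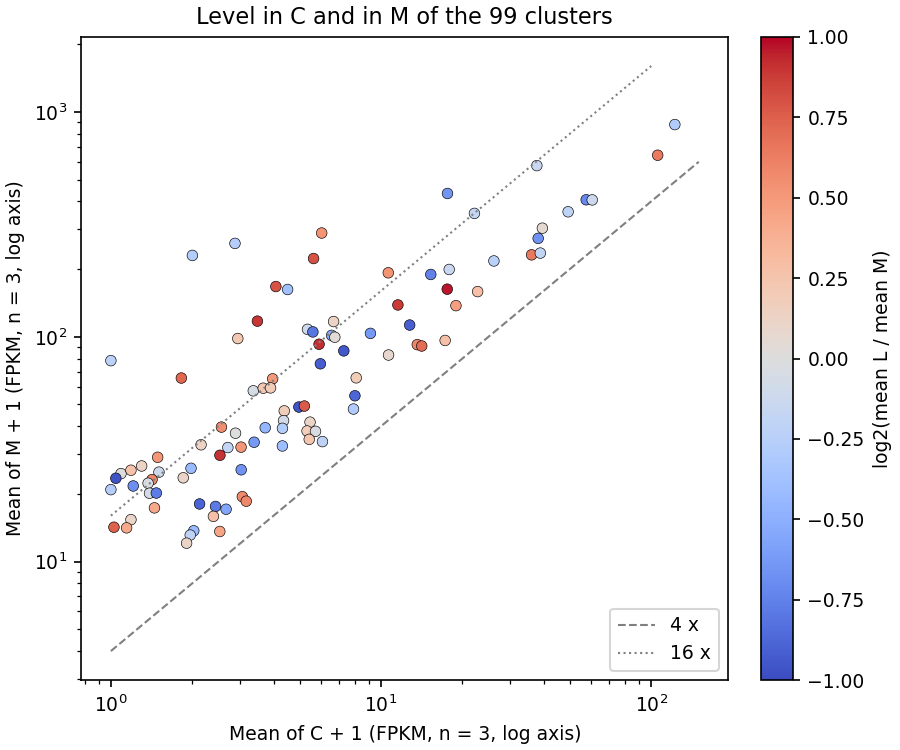
Mean FPKM plus 1 in C (horizontal, log axis) against mean FPKM plus 1 in M (vertical, log axis) of the 99 clusters, n = 3 libraries a group, coloured by log2 of the ratio of the mean of L to the mean of M. Lines mark 4-fold and 16-fold. Red and blue points are spread over all levels, and the points highest in C lie between the lines.

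The largest rise from C to M was that of Cluster-17261.4883. C replicates 1 to 3 gave 1.54, 0 and 1.47 FPKM. The cluster was at 190.81, 315.67 and 180.44 FPKM in M and at 168.04, 217.54 and 176.68 in L. All M and L values lay far above all C values, and the M and L values overlapped. On the log2(FPKM + 1) scale M exceeded C by 6.91 with a standard error of 0.37 (limma), and the difference of L minus M was -0.25 with the same standard error. The size of its rise rests on the small C values: with a pseudocount of 0.1 it was 8.44 and with 5 it was 5.25.

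The most abundant member in M was Cluster-17261.20534. Its C values were 124.03, 138.97 and 100.87 FPKM, its M values 988.48, 692.99 and 950.63, and its L values 671.54, 815.35 and 666.15. It ranked between 76 and 107 in the M libraries and between 780 and 1224 in the C libraries. M exceeded C by 2.84 and L exceeded C by 2.56 on the log2 scale, each with a standard error of 0.20 (limma). L minus M was -0.28, with overlapping values. This sign, and that of Cluster-17261.4883, turned when each library was scaled to the same median, to 0.64 and 0.67. With quantile normalization both stayed negative, at -0.63 and -0.32.

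Further members show the range of profiles. The cluster with the highest mean among those listed at 0 in all 3 C libraries stood at 95.19, 100.36 and 36.33 FPKM in M and at 30.58, 109.15 and 59.15 in L. Both groups spread over more than 2-fold, and they overlapped. The second most abundant member in M was at 91.51, 110.64 and 111.82 FPKM in C, at 638.07, 658.38 and 625.39 in M, and at 960.19, 1112.17 and 914.31 in L, so that it was the most abundant member in every L library. The third was at 26.17, 35.98 and 48.02 in C, at 595.52, 571.26 and 560.98 in M, and at 459.09, 570.94 and 537 in L, with M and L overlapping.

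Of the 99 members, 98 were called higher in M than in C by limma, which here asks for an adjusted p below 0.05 and a change of 2-fold or more. That call was made for 8.16% of the 35314 clusters tested. Likewise 98 were called higher in L than in C, against 10.2% of all clusters. The median log2 fold change of the members was 3.60 in M relative to C and 3.40 in L relative to C, where the medians of all tested clusters were -0.03 and -0.56. Both comparisons share the C libraries and both were fixed by the rule, so these counts describe the choice. The member not called in either comparison was at 0, 0.71 and 0.46 FPKM in C, at 11, 10.75 and 35.68 in M, and at 28.19, 0.13 and 26.12 in L.

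At the level of single libraries, the rule had set no condition on the lowest L value. Its conditions on M and on the ratio of L to M still put the mean of L above every C value. The counts below thus largely describe the choice. In 98 members every L library lay above every C library, as it did in 14.3% of all tested clusters. The exception was the member just described, with 0.13 FPKM in L replicate 2. In 75 members even the lowest L value reached 4 times the sum of the highest C value and 1 FPKM, and in 24 it did not. The M values had to meet that condition. Every L library was at 10 FPKM or more in 81 members. No share over all clusters was computed for the counts of 75 and 81.

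The ratio of the mean of L to the mean of M had a median of 0.995, with quartiles at 0.79 and 1.35. It was below 0.7 in 20 members, from 0.7 to below 1.4 in 56, and 1.4 or more in 23. In 14 members every L library lay below every M library, which was the case for 45.3% of all tested clusters, and in 18 every L library lay above every M library, against 11% of all. In the other 67 the libraries of M and L overlapped. Of the 20 members with a ratio below 0.7, 12 had all L values below all M values. Of the 23 with a ratio of 1.4 or more, 15 had all L values above all M values. The direction in these classes follows from sorting by the same values, and no share of all clusters with such ratios was computed.

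No member was called higher or lower in L than in M (limma), where 5.99% of all clusters were called higher and 25.7% lower. The limits on the ratio leave little room for a call that needs a 2-fold change. Some members in each direction had an adjusted p below 0.05 and missed only the 2-fold change, so the absence of calls is not an absence of differences. At an unadjusted p below 0.05, 14 members were higher and 14 lower in L, against 10.1% and 42% of all clusters. Calls appeared when a library was left out: without L replicate 2, 2 members were called higher and 5 lower. Of all 35314 tested clusters, 2297 were then called higher and 8241 lower. The member with the highest ratio, 1.95, was at 175.67, 123.21 and 186.41 FPKM in M and at 332.6, 289.17 and 323.05 in L. A member with a ratio of 0.636 was at 399.46, 473.5 and 425.08 in M and at 269.69, 293.09 and 262.71 in L. In both the groups were apart, in opposite directions. On the log2 scale L minus M was 0.98 and -0.65, with adjusted p of 0.0032 and 0.0072 (limma). Another member, with a ratio of 1.14, was at 37.02, 36.53 and 37.74 in M and at 45.08, 42.41 and 39.07 in L.

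A level described as held depends on the scale. As deposited, the ratio of the mean of L to that of M had a median of 0.575 over all tested clusters, so a member near 1 stood above most clusters in L relative to M. With every library scaled to the same median, the median ratio of the members became 1.90 and that of all tested clusters 1.09. On that scale 54 of the 99 members had a ratio below 2 and at least 0.5, 45 had a ratio of 2 or more, and 36 were called higher in L than in M (limma). Of all 35314 tested clusters, 5380 were called higher on that scale, against 2117 as deposited. With quantile normalization the median ratio was 1.14, 97 members lay in the window, and 1 was called higher, as were 3967 of all tested clusters. FPKM are relative to the rest of the library, so a held amount of RNA and a held part of the library cannot be told apart.

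The spread between replicates was described next, without a test. The median coefficient of variation of a member was 16.3% in M, 30.4% in L and 34.5% in C, where the levels of most members are low. Over the 10033 clusters at 10 FPKM or more in every M library, members included, the medians were 12.0% in M, 19.4% in L and 17.6% in C. The highest L value was over 2 times the lowest in 42 members (42.4%), against 21.8% of those 10033 clusters, and over 5 times in 11 members (11.1%), against 3.61%. In M a range over 2-fold was seen in 10 members (10.1%), against 6.17%. The rule required a minimum in every M library and none in the L libraries. A wide range in L was not particular to the members. Of the clusters that likewise rose in M, it was over 2-fold in 74.6% of those below 0.5 times M in L. It was so in 20.3% of those at 2 times M or more in L.

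L replicate 2 was the library most often at one end of the L values, both in the members and in other abundant clusters. It held the highest of the 3 L values in 63 members (63.6%), against 36.4% of 9934 further clusters that reached 10 FPKM in every M library. It held the lowest in 24 members (24.2%), against 42.0% of those further clusters, so the 2 sets differed in direction. The median log2 ratio of L replicate 2 to the mean of the other two L libraries was 0.30 over the members and -0.04 over the other clusters. For L replicate 1 it was -0.26 and 0.05, and for L replicate 3 -0.16 and -0.03. L replicate 2 also had the largest sum of FPKM, 932785 against 863749 and 882576, and the fewest clusters above 0, 42138 against 44249 and 46046. Low values move in steps of 1 fragment, and those steps put the depth of this library at 1.15 times that of C replicate 1, from a weak peak of 75 clusters against 19 in a typical window, while they put the other libraries compared at 0.95 to 1.08. The part of these library properties in the result was not tested.

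In 13 members L replicate 2 was more than 2 times both other L libraries (all values plus 1), or 13.1% against 1.87% of the other clusters. Their median was 109.6 FPKM in this library, against 41 and 39.3 in L replicates 1 and 3 and between 56.1 and 75 in the M libraries. The widest case was at 16.53, 163.45 and 19.24 FPKM in L replicates 1 to 3, around M values of 62.61, 75 and 37.12, so that its L to M ratio of 1.14 described no single L library. In 8 members L replicate 2 was below both other L libraries by more than 2-fold, or 8.08% against 4.95% of the other clusters. Their median was 7.4 FPKM in this library, against 28.4 and 34.9 in L replicates 1 and 3.

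In 4 further members L replicate 1 or 3 was the library more than 2-fold from both others, so that 25 members had an L library apart in this sense. L replicate 3 was more than 2 times both others in 6 members (6.06%, against 0.805% of the other clusters), some of them among the 8 low in L replicate 2. Without L replicate 2, the ratio of L to M had a median of 0.567 in the 13 members high in that library, of which 5 fell below 0.5. In the 8 members low in it the median became 1.29, and 1 rose to 2 or more. Among the other 78 members the median ratio was 1.04 with and 0.948 without L replicate 2, and 71 stayed within the window. In all, 86 of the 99 members met the rule without this library.

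**Figure D4:**
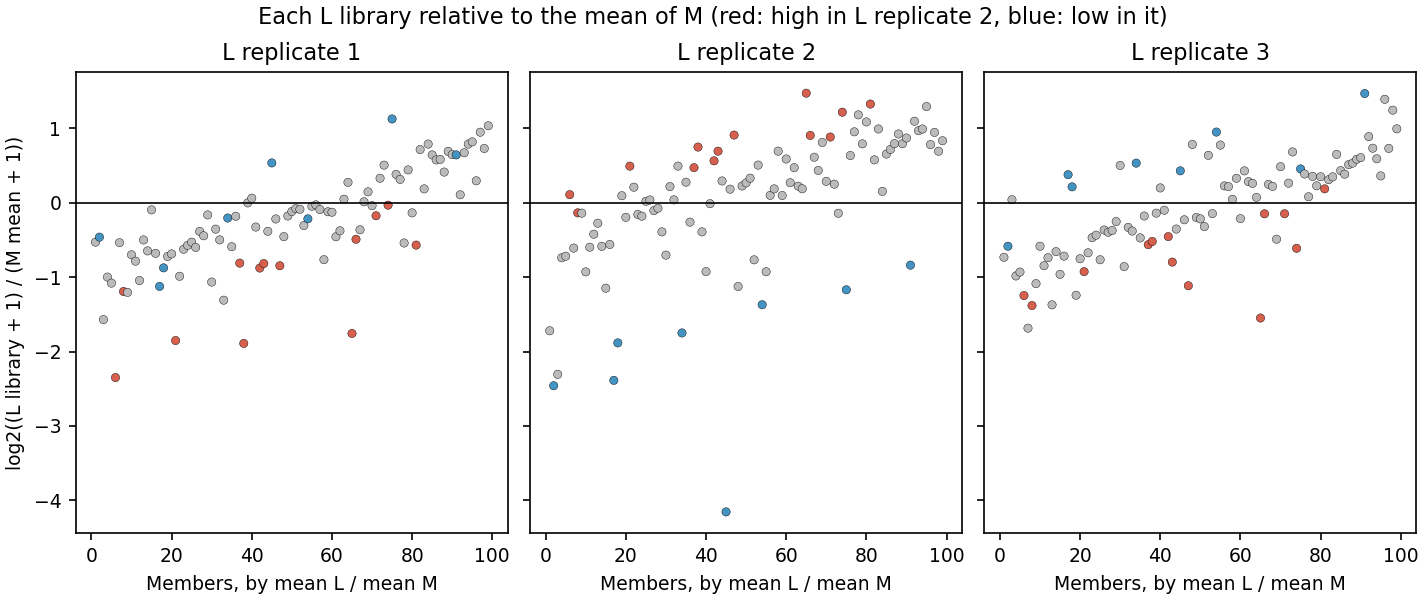
Log2 of each L library plus 1 over the mean of M plus 1 (vertical), for the 99 clusters ordered by the ratio of the mean of L to the mean of M (horizontal), 1 panel per L library. The 13 members high in L replicate 2 (red) lie mostly above 0 in that panel and mostly below 0 in the others, and the 8 members low in it (blue) lie below 0 there, down to the cluster at 0.13 FPKM.

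Because the rule had seen every library, it was applied again to 2 libraries a group, and the third library of each group was then described. Without the libraries numbered 1, 125 clusters were chosen, of which 93 were members. In the 3 left-out libraries, 112 of the 125 (89.6%) met the conditions on M and C, all 125 were higher in M than in C, and 84 (67.2%) had an L to M ratio within the window. Of the 10418 clusters at 10 FPKM or more in both M libraries used, 7.37% met those conditions and 56.9% lay within the window in the left-out libraries. Without the libraries numbered 2, 150 were chosen, 105 (70%) met the conditions on M and C in the left-out libraries, and 91 (60.7%) lay within the window, against 5.73% and 51.8% of 10589 such clusters. Without the libraries numbered 3, 156 were chosen, 114 (73.1%) met those conditions, and 106 (67.9%) lay within the window, against 4.73% and 55.3% of 10579.

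The shares within the window thus lay near those of all clusters at that level in M, and say little about the chosen clusters. The shares that met the conditions on M and C lay far above theirs. The chosen clusters had met those conditions in the libraries used, whereas the compared clusters had only reached 10 FPKM in M. The excess is therefore given as a description. The median log2 difference of the left-out M and C libraries was 3.30, 2.75 and 2.79 for numbers 1 to 3, and that of the left-out L and M libraries was -0.22, 0.24 and -0.02. Left-out M lay above left-out C in 125 of 125, 144 of 150 and 155 of 156 clusters, and left-out L in 122, 139 and 151 of them. The choice had already put M and L above C in the libraries used. The same shares over all clusters were not computed. The labels do not say that shared numbers pair the libraries, and the left-out libraries are 1 of each group.

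The 99 members were part of 237 clusters that met the conditions on M and C. Of these, 59 (24.9%) had an L mean below 0.5 times the M mean, 99 (41.8%) are the members, and 79 (33.3%) had an L mean of 2 times the M mean or more. Among all 10033 clusters at 10 FPKM or more in every M library these shares were 35.7%, 56.6% and 7.71%. The median C mean was 2.20 FPKM in the clusters that were lower in L, 3.32 in the members and 2.03 in those higher in L. The median M mean was 34.6, 53.6 and 65.4 FPKM, and the median L mean 8.05, 53.6 and 364.5. The median coefficient of variation within L was 55.1%, 30.4% and 20.6%. No test of these differences is given, since the ratio that separates the classes was built from the same values.

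The limits of the rule cut through a continuous range. The member closest to the limit set by C had a lowest M value of 28.02 FPKM against a required 27.84, and the nearest cluster outside had 164.19 against 167.56. The lowest M value of any member was 10.15 FPKM, and the nearest cluster below that limit was at 9.54. The lowest ratio of L to M was 0.512 inside and 0.493 just outside, and the highest was 1.95 inside and 2.07 just outside.

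The cluster identifiers, which the rule did not use, hold a parent number and a running number. All 99 members carried the parent number 17261, as did 10023 of the 10033 clusters at 10 FPKM or more in every M library (99.9%) and 69.8% of all clusters. Their running numbers were spread unlike those of abundant clusters. Split into 10 equal ranges of numbers, the abundant clusters peaked in range 6 with 2966, where 5 members lay. Ranges 1, 2 and 9, picked after the counts were seen, held 43 members (43.4%), 507 of the 10023 abundant clusters (5.06%) and 13358 of all 44526 clusters with that parent number (30.0%).

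The same 3 ranges held 28 of 58 clusters with that parent number that rose in M and were below 0.5 times M in L (48.3%), and 36 of the 79 that were at 2 times M or more in L (45.6%). Members in ranges 1, 2 and 9 had median C means of 1.02, 1.88 and 1.69 FPKM, against 19.3 and 16.6 in ranges 5 and 6. How the running numbers were given is not stated in the sources used here.

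**Figure D5:**
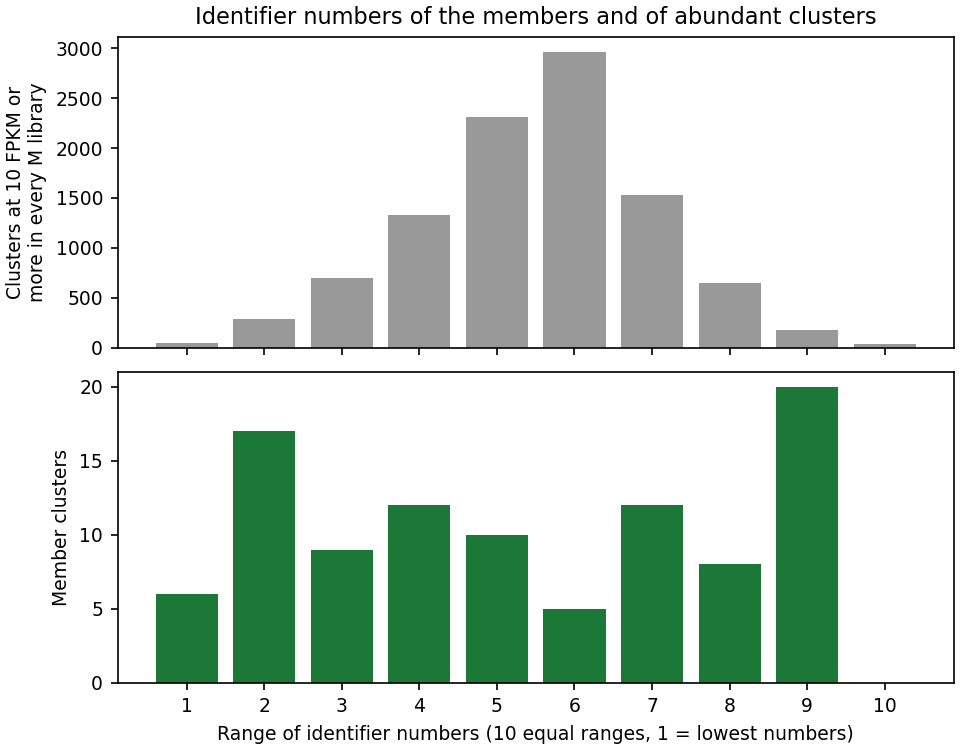
Number of clusters at 10 FPKM or more in every M library (upper panel) and of member clusters (lower panel) in 10 equal ranges of running identifier numbers under the parent number 17261. The abundant clusters peak at 2966 in range 6, while the members reach 17 in range 2 and 20 in range 9.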

How the data were processed

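Poly(A) RNA of leaves was sequenced in 9 libraries. The deposited table holds FPKM per cluster and library, as the authors computed them, to 2 decimals, per the file headers. No source used here names the aligner, assembler or counting tool. The labels name an animal tissue for extraction and a mouse genome build, which cannot describe plant leaves and were not used. FPKM keep no fragment counts, so absolute depth is unknown and no counting interval is given. The labels do not say that replicates are separate plants, so p-values reflect a spread among libraries that may be technical.

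The membership rule and all lists were chosen with earlier results of these data known. Clusters at 1 FPKM or more in at least 3 libraries were tested (35314; all 99 members passed, as the rule ensures). Values were transformed to log2(FPKM + 1), and 1 linear model of the 3 groups was fitted across all clusters and libraries (limma 3.58.1, R 4.3.3, trended prior variance). Benjamini-Hochberg adjustment ran over all tested clusters, and calls needed an adjusted p below 0.05 plus a change of 2-fold or more. The fit was tested on simulated data. Since identifiers carry no names, the naming rule printed only the members with the largest rise and the highest mean in M; the 2 members to be named as called lower in L did not exist. Other members, shown without identifier, were picked after their values were seen. Gene lists and cell type markers could not be matched. No 2 libraries held identical values.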

Additional observations from a re-analysis of the deposited data

How the results depend on the processing

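The number of clusters that met the rule ran from 93 to 133 when 1 library was left out, and 86 to 99 of the members still met it. With 5 FPKM added to the highest C value 50 met it, with 8 times the highest C value 43, and with a window of 0.7 to below 1.4 for the ratio of L to M 56, all of them members. After median scaling 46 members still met it. The numbers called higher in M and in L than in C, 98 each, were 98 or 99 under every alternative run. Of all tested clusters, 1343 to 3334 were called higher in M and 2177 to 6636 in L. For L against M, 36 members were called higher after median scaling and 1 after quantile normalization, against 5380 and 3967 of 35314 tested clusters. Leaving out 1 library gave 0 to 2 members higher and 0 to 5 lower. Of all tested clusters, 1899 to 2297 were then called higher and 8241 to 9505 lower. Where this left 2 libraries in a group, the shared spread of all groups was used. A replicate block gave 98, 98, 0 and 0, as without it. Correlations of same-numbered deviations lay between -0.06 and 0.0307, and those of differently numbered ones between -0.0518 and 0.076. These values show no pairing by number, but cannot tell whether same-numbered libraries shared a plant, day or batch. Absolute depth is unknown, which limits what can be said of C values below 1 FPKM.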

Other observations

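Some members carried neighbouring running numbers, which was looked at after the values were seen. Of the 98 steps between members in order of their numbers, 7 were of 10 or less, with a median step of 229. In 3 members with consecutive numbers the L libraries were ordered alike: 10.38, 2.9 and 17.98 FPKM in L replicates 1 to 3 for the first, 46.47, 18.78 and 133.47 for the second, and 70.41, 31.07 and 159.26 for the third. Their M values differed less, with 10.49, 11.47 and 14.4 FPKM in the first, 100.16, 111.32 and 96.05 in the second, and 82.08, 68.07 and 95.66 in the third. The next member by number was ordered otherwise, at 178.17, 212.48 and 178.79 FPKM in L replicates 1 to 3. In some other close pairs L replicate 2 was the highest L library of a member and the lowest of its neighbour. In others it lay at the same end in both. Whether such clusters share sequence could not be examined, so they may not be independent features.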
